A study of Mus musculus with 64 samples.

Results

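The 10 genes described here carry the growth hormone, insulin-like growth factor (IGF) and insulin signal, and they were chosen by name, as a list of gene symbols matched to the gene IDs of the deposited table. All 10 were found among 36332 gene IDs. They are the growth hormone receptor (Ghr), the ligand Igf1, the binding proteins Igfbp1, Igfbp2, Igfbp3 and Igfals, the receptors Igf1r and Insr, and the receptor substrates Irs1 and Irs2. RNA was sequenced from skeletal muscle, liver and omental adipose tissue, taken when mice were 5 or 20 months old, in 64 libraries that form 12 groups. The Myc knockout group (KO) came from a cross of a line with a tamoxifen-activated Cre recombinase (cre/ERT2) at the Gt(ROSA)26Sor locus, which is active in most tissues, with a line in which Myc is flanked by recombination sites (Myc tm2Fwa), both with B6.129 in their strain names. Wild-type mice (WT) are labelled C57/B6. Per the labels, the groups of both genotypes and both ages had 5 daily injections of tamoxifen (75 mg/kg) after weaning, once they weighed at least 15 g. At 5 months there were 6 libraries of each genotype from adipose tissue and from liver and, from muscle, 4 KO and 6 WT, and each tissue had 5 of each genotype at 20 months. Libraries go by their codes, with K or W for the genotype and F, L or S for adipose tissue, liver and muscle. The codes of the older mice begin with K18 or W18, although every other label gives 20 months.

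Growth hormone from the pituitary binds GHR on liver cells, and the kinase JAK2 and the transcription factor STAT5 then raise the transcription of Igf1 and Igfals. IGF1 circulates mostly bound to IGFBP3 and the acid-labile subunit (the product of Igfals), and it acts through IGF1R, while insulin acts through the related receptor INSR. Both receptors pass the signal to IRS1 and IRS2, which recruit PI3-kinase, and the kinase AKT then keeps FoxO factors out of the nucleus, so that FoxO targets such as Igfbp1 and Irs2 in liver rise in fasting and fall after a meal. The title of the series ties body-wide loss of Myc to premature ageing, and the comparisons below ask how these genes differ between genotypes, ages and tissues.

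Library depth ran from 15.4 to 28.5 M (megareads) on genes. In the check of the labels, Myc in adipose tissue and liver at 5 months was below every WT library in every KO library: 2.87 to 10.5 CPM against 11.2 to 22.8 CPM, and 1.16 to 4.04 CPM against 5.46 to 33.7 CPM. In muscle the ranges overlapped (4.998 to 17.1 CPM in KO and 6.15 to 81.3 CPM in WT), and at 20 months the genotypes overlapped in adipose tissue and muscle and did not in liver (1.12 to 2.92 CPM in KO and 5.36 to 7.61 CPM in WT). CPM here is the read signal of the deposited table under its header's name. Some libraries stood apart. At 5 months 12 libraries, 2 in each group of each tissue, had Xist and no Y-chromosome transcripts, and no 20-month library did. Epididymis transcripts were found in 4 of the 5-month adipose libraries (summed markers 919 to 6239 CPM) and, at 0.878 CPM, in W5F5005, and fits without them leave out these 5. Of the muscle libraries W5S5299 had 126 CPM and W18S41 1.49 CPM of these markers. The 20-month WT muscle library W18S42 held hepatocyte transcripts (2827 CPM), while the other 20-month WT muscle libraries had 6.36 CPM (W18S41) or 0. In 10 libraries the clock gene Dbp was above Arntl, a clock gene of opposite phase, and in the other 54 it was below. Hepatocyte, adipocyte and muscle markers were high in all libraries of their labelled tissue.

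The plot of levels by library shows how the tissues were ordered. By mean level in 5-month WT mice Ghr was highest in adipose tissue, Igf1, Igfals, Igfbp1 and Igfbp2 were highest in liver, and Igf1r, Insr, Irs1 and Irs2 were highest in muscle. With libraries rescaled to the same sum, adipose tissue against muscle was not called for Igf1r (-0.36, adjusted p = 0.252), Insr, Irs1 or Irs2. Of the 8 members that passed the low-value filter in every tissue, 5 differed between liver and adipose tissue (2 higher and 3 lower in liver), against 71.5% of all 11330 genes tested. Between liver and muscle 6 of 8 differed, 3 in each direction, against 74.5% of genes, and between adipose tissue and muscle 6 of 8 differed, 2 higher and 4 lower in adipose tissue, against 74.2%. These shares are close to those of all genes. Differences (log2 changes, the log2 of a fold change) are on the log2(CPM + 1) scale throughout, and p-values are from limma, adjusted over all genes tested. A level across tissues depends on how the authors scaled each library: rescaling every library to the same sum moved the median difference of all genes from 0.05 to -0.996 between liver and adipose tissue, from 0.03 to -0.20 between liver and muscle and from 0.10 to 0.90 between adipose tissue and muscle. In bulk tissue a change in a gene's level per cell and a change in the share of the cells that make it cannot be told apart.

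**Figure D1:**
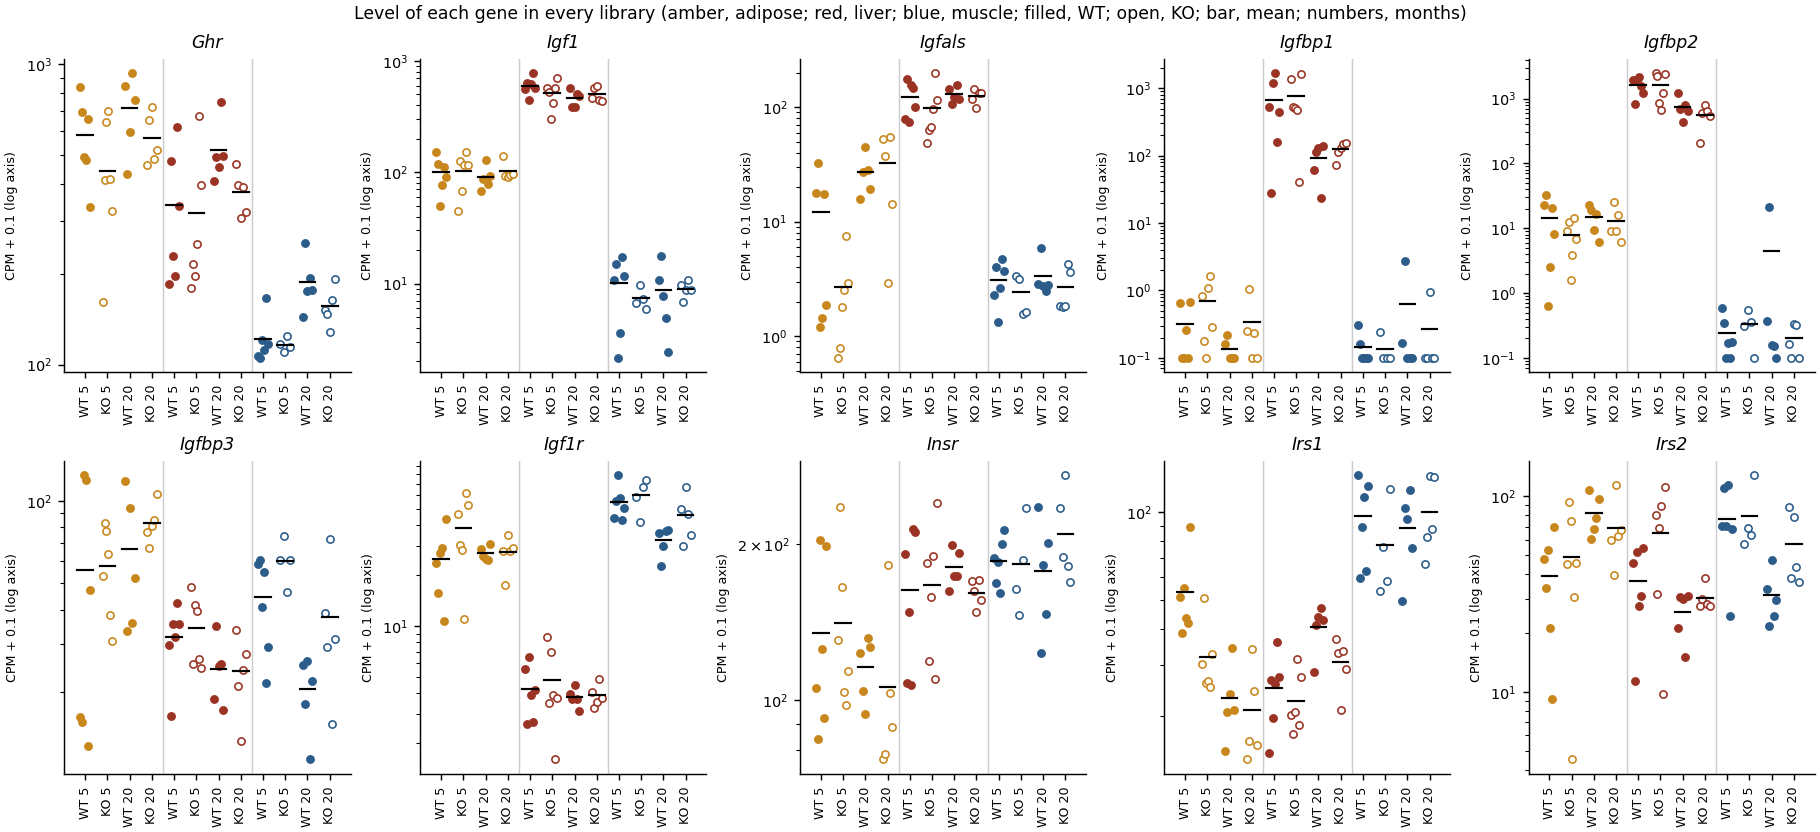
Level of each gene (CPM + 0.1, log axis) in every library, by tissue (amber, adipose; red, liver; blue, muscle), genotype (filled, WT; open, KO) and age in months, with the group mean as a bar. Mean Igfbp1 in 5-month WT mice is 668 CPM in liver and 0.0448 CPM in muscle, while mean Insr is 163 and 186 CPM.

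Ghr (chromosome 15, 3317755 to 3583352 on GRCm38.p6) encodes the receptor through which growth hormone acts. Its level in 5-month WT adipose tissue had a lowest value of 334, a median of 573 and a highest of 843 CPM, in liver 186, 284 and 618 CPM in the same order, and in muscle 105, 114 and 167 CPM. Liver and adipose values overlapped, and each lay above every muscle value. The differences passed the test for all 3 pairs of tissues, with log2 changes of -0.86 (SE 0.27, adjusted p = 0.00379) for liver against adipose tissue, 1.35 (SE 0.27, adjusted p = 1.09e-05) for liver against muscle and 2.21 (SE 0.27, adjusted p = 1.22e-10) for adipose tissue against muscle. Without the libraries with Xist the first of these had an adjusted p of 0.0505. Over the 12 groups mean Ghr ran from 116 CPM in 5-month KO muscle to 714 CPM in 20-month WT adipose tissue.

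Igf1 (chromosome 10, 87858265 to 87937047), the ligand, was ordered liver, adipose tissue, muscle with no overlap between tissues at 5 months in WT. Liver values had a lowest value of 446, a median of 593 and a highest of 773 CPM, adipose values 49.3, 101 and 151 CPM, and muscle values 2.05, 11.1 and 17.1 CPM. Liver was higher than adipose tissue by a log2 change of 2.64 (SE 0.31, adjusted p = 3.42e-11) and adipose tissue was higher than muscle by 3.38 (SE 0.31, adjusted p = 7.96e-15). The same order held in the group means of each genotype and age. Igfals (chromosome 17, 24877844 to 24882011), the acid-labile subunit that stabilises IGF1 in blood, was also highest in liver, with a lowest value of 74.1, a median of 124 and a highest of 178 CPM. Its liver level lay above every adipose value (log2 change 3.99, SE 0.49, adjusted p = 1.55e-10) and every muscle value, which were 1.23 to 4.63 CPM. Adipose tissue and muscle did not differ beyond their spread in Igfals (log2 change 0.94, SE 0.49, adjusted p = 0.0773), and the 6 adipose libraries fell apart: W5F5041, W5F5042 and W5F5299 had 1.11, 1.35 and 1.78 CPM, and W5F5277, W5F5005 and W5F5006 had 17.3, 17.8 and 32.4 CPM. Of the low ones, W5F5041 and W5F5042 have Xist, and W5F5299 held 919 CPM of epididymis markers.

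Igfbp1 (chromosome 11, 7197787 to 7202546) and its neighbour Igfbp3 (7206086 to 7215498) encode secreted binding proteins, the first an insulin-repressed liver product and the second the main carrier of IGF1 in blood. Igfbp1 was a liver transcript: 5-month WT livers had a lowest value of 27.4, a median of 484 and a highest of 1664 CPM, while every WT adipose and muscle library of that age was at or below 0.567 CPM. It did not pass the filter in adipose tissue or muscle and was not tested there. Within each liver group at 5 months Igfbp1 varied widely, from 27.4 to 1664 CPM in WT and from 40.3 to 1603 CPM in KO. Igfbp2 (chromosome 1, 72824480 to 72852474), a second liver-made binding protein, had a lowest value of 816, a median of 1756 and a highest of 2171 CPM in 5-month WT liver, 0.535 to 31.9 CPM in adipose tissue and at most 0.483 CPM in muscle. The muscle library W18S42, with its hepatocyte transcripts, had 21.3 CPM of Igfbp2 and 2.61 CPM of Igfbp1, while the other 4 libraries of its group had at most 0.271 and 0.0676 CPM.

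Igfbp3 did not separate the tissues. Its 5-month WT values were 12.6 to 124 CPM in adipose tissue, 16.2 to 42.01 CPM in liver and 21.5 to 60.4 CPM in muscle, and the log2 differences were -0.25 (SE 0.38, adjusted p = 0.557) for liver against adipose tissue and -0.43 (SE 0.38, adjusted p = 0.305) for liver against muscle. In adipose tissue the 3 lowest values, 12.6, 15.4 and 16.1 CPM, came from the same 3 libraries that were highest in Igfals.

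The receptors differed in their pattern. Igf1r (chromosome 7, 67952257 to 68233668) was lowest in liver, with 2.50 to 6.42 CPM in 5-month WT libraries, against 10.6 to 43.2 CPM in adipose tissue and 42.5 to 79.3 CPM in muscle. Liver values did not overlap those of either other tissue (log2 change -2.26, SE 0.27, adjusted p = 1.02e-10 against adipose tissue, and -3.47, SE 0.27, adjusted p = 2.20e-17 against muscle). Insr (chromosome 8, 3150922 to 3279649) stayed within 83.8 to 215 CPM over the 5-month WT libraries of all 3 tissues. Its liver level differed from neither adipose tissue (log2 change 0.30, SE 0.21, adjusted p = 0.191) nor muscle (-0.24, SE 0.21, adjusted p = 0.308) beyond the spread, and with libraries rescaled to the same sum the first of these turned to -0.83 (adjusted p = 4.55e-04). Adipose tissue was lower than muscle, with a log2 change of -0.54 (SE 0.21, adjusted p = 0.0183), a difference that turned to 0.33 under that rescaling.

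Irs1 (chromosome 1, 82233105 to 82291439) is the main receptor substrate of muscle and fat, and Irs2 (chromosome 8, 10984681 to 11008929) that of the fasted liver. Irs1 at 5 months in WT was ordered muscle (96.8 ± 31.6 CPM (SD, n = 6)), adipose tissue (53.2 ± 18.7 CPM (SD, n = 6)) and liver (25.01 ± 7.13 CPM (SD, n = 6)). Each liver value lay below every value of the other tissues, with a log2 change of -1.05 (SE 0.24, adjusted p = 8.52e-05) against adipose tissue and -1.89 (SE 0.24, adjusted p = 2.21e-10) against muscle. Adipose tissue was below muscle, with a log2 change of -0.84 (SE 0.24, adjusted p = 0.00124) that became 0.02 with rescaled libraries. Irs2 had 76.2 ± 32.95 CPM (SD, n = 6) in muscle, 39.1 ± 22.2 CPM (SD, n = 6) in adipose tissue and 36.9 ± 16.7 CPM (SD, n = 6) in liver, and liver and adipose tissue did not differ beyond the spread (log2 change 0.01, SE 0.46, adjusted p = 0.988). Muscle was above liver (liver against muscle -1.04, SE 0.46, adjusted p = 0.0393), a call lost without the libraries with Xist (adjusted p = 0.091) and in 8 of 12 fits without 1 library (up to 0.151 without W5L5005).

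The promoters of Igfbp1, Irs1 and Irs2 are shown because each holds CAAAACAA and those of Irs1 and Irs2 also share CACGTG. The sequences are RefSeq's on GRCm38.p6, 250 bases before to 50 after the start, read 5′ to 3′ on the gene's strand. Capitals mark matches, on either strand, to CACGTG (the E-box, which Myc binds), TTCNNNGAA (the STAT element), GTAAACAA (the FoxO element) and CAAAACAA (the insulin response element). Positions are chr11:7197537-7197836, + strand, chr1:82291390-82291689, - strand and chr8:11008880-11009179, - strand.
Igfbp1: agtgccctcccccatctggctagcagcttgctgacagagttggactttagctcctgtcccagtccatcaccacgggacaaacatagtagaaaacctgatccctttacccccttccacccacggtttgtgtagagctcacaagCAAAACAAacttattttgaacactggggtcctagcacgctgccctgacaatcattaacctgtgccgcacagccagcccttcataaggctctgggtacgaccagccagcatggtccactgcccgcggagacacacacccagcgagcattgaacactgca
Irs1: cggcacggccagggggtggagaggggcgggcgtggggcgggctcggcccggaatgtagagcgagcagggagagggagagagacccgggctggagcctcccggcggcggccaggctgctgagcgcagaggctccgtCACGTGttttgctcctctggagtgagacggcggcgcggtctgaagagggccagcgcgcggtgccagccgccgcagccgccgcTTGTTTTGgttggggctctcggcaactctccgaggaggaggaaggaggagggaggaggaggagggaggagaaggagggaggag
Irs2: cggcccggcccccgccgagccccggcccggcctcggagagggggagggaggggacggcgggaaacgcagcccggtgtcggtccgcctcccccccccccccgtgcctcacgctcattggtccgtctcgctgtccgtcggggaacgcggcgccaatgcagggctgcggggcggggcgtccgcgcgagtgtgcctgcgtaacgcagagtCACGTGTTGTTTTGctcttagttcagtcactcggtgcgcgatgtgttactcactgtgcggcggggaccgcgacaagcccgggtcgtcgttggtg

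Igfbp1 held CAAAACAA, starting 108 bases before the transcription start. Irs1 held CACGTG at 115 and CAAAACAA, on the other strand, at 33 bases before its start. In Irs2 the same pair of motifs stood at 44 and 38 bases before the start, end to end, so that the capitals there form 1 run. Of all 32851 mouse promoters of this length in the table, 7.15% held CACGTG, 8.30% TTCNNNGAA, 1.23% GTAAACAA and 2.51% CAAAACAA. Among the 13 listed promoters of 9 members, Igfbp2 also held CACGTG, and 2 of 3 Igfals promoters held TTCNNNGAA. None of these motifs matched in the promoters of Ghr, Igf1, Igf1r and Igfbp3. A match describes the letters alone.

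Loss of Myc was compared first, as KO against WT in each tissue and at each age. With all libraries no member passed the test in any of these comparisons. Over the 54 tests of members the log2 changes ran from -1.28 to 0.79, and 53 lay within 1 of 0. In adipose tissue 0 of 9 members tested were called at 5 months, against 0.105% of all genes, and 0 of 9 at 20 months, against 0%. In liver 0 of 10 were called at 5 months, against 0.0696%, and 0 of 10 at 20 months, against 0.0232%. In muscle 0 of 8 were called at 5 months, against 0%, and 0 of 8 at 20 months, against 0.0302%. edgeR and DESeq2 on reads recovered from the table also called 0 members in each of the 6 comparisons. At an unadjusted p under 0.05 limma gave 1 member in adipose tissue at 5 months (background 11.8%), 0 at 20 months (2.25%), 0 in liver at 5 (6.94%) and 20 months (5.8%), 0 in muscle at 5 months (4.1%) and 3 in muscle at 20 months (13.8%).

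Those 4 values were the following. Irs1 in 5-month adipose tissue had 25.1, 28.2 and 50.9 CPM in KO (lowest, median, highest) and 38.6, 47.4 and 89.3 CPM in WT. Of the 6 KO libraries 5 lay below the lowest WT library, and the log2 change was -0.71 (SE 0.24, unadjusted p = 0.0067, adjusted p = 0.284 with limma). In muscle at 20 months Irs2 had 36.4, 37.9, 43.3, 77.99 and 88.1 CPM in KO and 21.6, 24.4, 29.5, 33.6 and 47.2 CPM in WT libraries (log2 change 0.79, SE 0.35, adjusted p = 0.341). Igfbp3 (0.73, SE 0.33, adjusted p = 0.348) and Igf1r (0.44, SE 0.21, adjusted p = 0.362) had differences of the same sign there. The groups overlapped for each of these 3 genes. Igf1r was called without the libraries with Xist, in 5-month adipose tissue, where the log2 change moved from 0.55 (SE 0.33, adjusted p = 0.512) to 1.15 (adjusted p = 0.049). Igf1r was 10.95, 38.5 and 61.8 CPM in KO and 10.6, 25.4 and 43.2 CPM in WT (lowest, median, highest). The 4 highest values of both genotypes, 61.8, 52.8, 46.7 and 43.2 CPM, came from the 4 libraries with the most epididymis transcripts, whose part was not tested.

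Igf1 gave no call between genotypes. Its liver mean at 5 months was 513 ± 138 CPM (SD, n = 6) in KO mice, beside 598 ± 107 CPM (SD, n = 6) in WT mice, with a log2 change of -0.25 (SE 0.17, adjusted p = 0.834), and at 20 months the log2 change was 0.12 (SE 0.19, adjusted p = 0.963). Ghr in liver differed by -0.12 (SE 0.30) at 5 and -0.45 (SE 0.33) at 20 months, and Insr in muscle by -0.04 (SE 0.17) and 0.25 (SE 0.17), none of them past the test. The standard errors were widest for Igfbp1 in liver (0.91 at 20 months) and narrowest for Ghr in muscle (0.14 at 20 months). With adjustment over all genes a change of several standard errors could still miss the threshold. Irs1 in 5-month adipose tissue did so (-0.71, SE 0.24, adjusted p = 0.284 with limma), so a missing call does not exclude a change. No member's change with age was called different between genotypes. The interaction of genotype and age called 0 of 9 members in adipose tissue, 0 of 10 for liver and 0 of 8 for muscle, against 0%, 0% and 0% of all genes, and none had an unadjusted p under 0.05 (background 2.85%, 3.92% and 3.31%). edgeR and DESeq2 called 0 members there too.

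Age was compared within each genotype, 20 against 5 months. In WT adipose tissue 1 of 9 members was called, Irs1, against 10.8% of all genes, and in KO adipose tissue 1 of 9, Igfals, against 14.2%. In WT liver 1 of 10 was called, Irs1, against 7.19%, and in KO liver 1 of 10, Igfbp2, against 2.99%. In WT muscle 4 of 8 were called, Ghr higher and Igf1r, Igfbp3 and Irs2 lower, against 18.6% of all genes, and in KO muscle 0 of 8, against 5.57% (2 at an unadjusted p under 0.05, 0 with edgeR and 1 with DESeq2). The median log2 change of the members was 0.30 in WT adipose tissue, -0.22 in WT liver and -0.14 in WT muscle, beside 0.01, -0.01 and 0.03 over all genes tested. In KO it was 0.49, -0.06 and 0.14, beside 0.06, -0.02 and -0.02. KO and WT changes were not called different for any member, so a call in 1 genotype alone is no sign that the genotypes differ. Since the libraries with Xist are all from 5-month mice, results are also given below without them where that ends or adds a call.

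**Figure D2:**
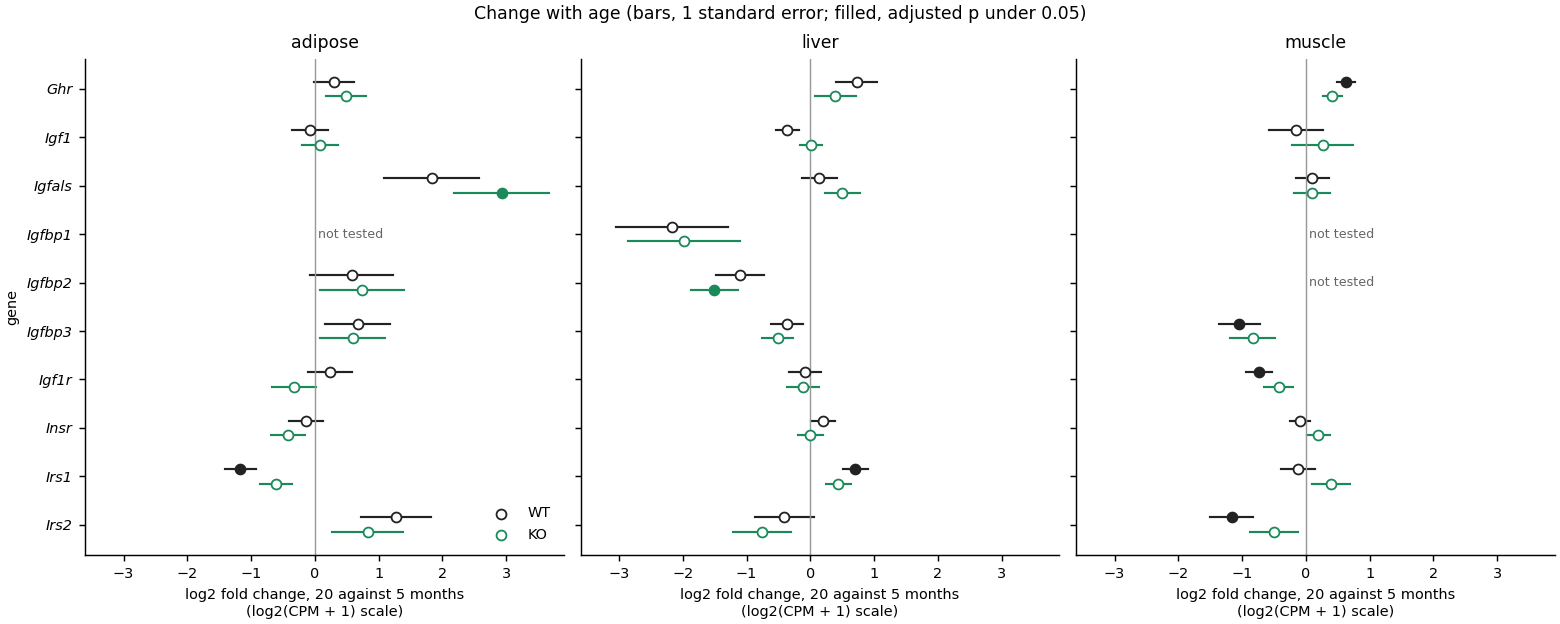
Log2 fold change of each gene at 20 against 5 months (x axis, log2(CPM + 1) scale) in WT (black) and KO (green) libraries of each tissue, with bars of 1 standard error and filled points for an adjusted p under 0.05. WT Irs1 lies at -1.17 for adipose tissue, 0.70 for liver and -0.12 for muscle.

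In adipose tissue Irs1 fell with age in WT mice. The 5-month libraries had a lowest value of 38.6, a median of 47.4 and a highest of 89.3 CPM, and the 20-month libraries had 15.1, 20.6, 20.9, 23.8 and 34.3 CPM. Every 20-month value lay below every 5-month value. The log2 change was -1.17 (SE 0.25, adjusted p = 0.00613), it was -1.20 without the libraries with Xist and -0.97 without those with epididymis transcripts, and it was called in each of the 20 alternatives run. KO libraries had a lowest value of 25.1, a median of 28.2 and a highest of 50.9 CPM at 5 months and 14.1, 15.9, 16.4, 24.4 and 34.04 CPM at 20 months, which overlap (log2 change -0.61, SE 0.25, adjusted p = 0.0968). Summed adipocyte markers moved in the same direction in WT, from 17788 to 33833 CPM at 5 months down to 10636 to 17669 CPM at 20 months, with all 6 markers above 1 CPM on average in each group. Their part in the Irs1 result was not tested.

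Igfals in adipose tissue rose with age in KO mice. The 5-month KO libraries had a lowest value of 0.547, a median of 2.07 and a highest of 7.33 CPM, and the 20-month libraries 2.84, 14.1, 37.3, 52.1 and 55.2 CPM. Of the 5 older libraries 4 lay above every younger one, and K18F28 lay among them. The log2 change was 2.93 (SE 0.75, adjusted p = 0.0155). Without K18F26 the adjusted p was 0.0566 and without K18F29 0.0508. In WT the 20-month libraries had 15.6, 19.1, 26.996, 28.3 and 44.7 CPM, all above the 3 low 5-month libraries named before and overlapping the 3 high ones (log2 change 1.84, SE 0.75, adjusted p = 0.105). Of the 3 low ones, W5F5041 and W5F5042 are libraries with Xist and W5F5299 is one with epididymis transcripts. Without the libraries with Xist the adjusted p of the WT change was 0.455. Igfals is a liver product, and summed hepatocyte markers in adipose libraries ran from 2.65 to 722 CPM. The library with the most Igfals, K18F29, had 16.6 CPM of them. The library with the most hepatocyte transcripts, K18F27, had 37.3 CPM of Igfals. Igfbp1 was at 0.134 CPM in K18F29 and 0.946 CPM in K18F27. The part of hepatocyte transcripts was not tested. The pancreas marker sum rested on Cela1, the only 1 of 8 markers above 1 CPM on average. In KO the sum was 6.75 to 18.7 CPM at 5 months and 14.9 to 41.3 CPM at 20 months, which overlap. Among the 5-month KO libraries K5F5218 had the most Igfals (7.33 CPM) and the lowest sum (6.75 CPM). The part of this sum was not tested.

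The other members of adipose tissue gave no call. Irs2 had higher means at 20 months in both genotypes, 82.3 ± 19.8 CPM (SD, n = 5) against 39.1 ± 22.2 CPM (SD, n = 6) in WT and 68.7 ± 27.3 CPM (SD, n = 5) against 48.98 ± 31.7 CPM (SD, n = 6) in KO, with log2 changes of 1.27 (SE 0.55, adjusted p = 0.129) and 0.83 (SE 0.55, adjusted p = 0.31). Igfbp3 was called in WT only without the libraries with Xist, which hold its 2 highest 5-month values (119.6 and 124 CPM): the log2 change was then 1.53 (adjusted p = 0.0364), against 0.67 (SE 0.52, adjusted p = 0.39) with them. Igf1 in adipose tissue had changes of -0.08 (SE 0.29) in WT and 0.09 (SE 0.29) in KO.

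In liver Irs1 rose with age in WT mice, opposite to adipose tissue. The 5-month libraries had a lowest value of 14.95, a median of 26.2 and a highest of 35.8 CPM, and the 20-month libraries had 28.4, 41.2, 42.7, 43.6 and 46.9 CPM. Of the 5 older libraries 4 lay above every younger one. The log2 change was 0.70 (SE 0.20, adjusted p = 0.0313), and it missed the threshold without the libraries with Xist (0.66, adjusted p = 0.107), with no filter on low genes (adjusted p = 0.0542) and in 7 of 11 fits that left out 1 library, with an adjusted p of up to 0.0782 without W18L04. KO livers had a lowest value of 17.3, a median of 20.4 and a highest of 31.4 CPM at 5 and 21.02, 29.1, 33.01, 33.3 and 36.7 CPM at 20 months, which overlap (log2 change 0.43, SE 0.20, adjusted p = 0.227).

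Igfbp2 in liver was lower at 20 months in both genotypes and passed the test in KO. KO livers had a lowest value of 673, a median of 1715 and a highest of 2452 CPM at 5 months and 208, 537, 593, 639 and 799.9 CPM at 20 months, with an overlap between the ages (log2 change -1.50, SE 0.37, adjusted p = 0.0317). It was -1.97 (adjusted p = 0.00535) without the libraries with Xist, and lost the call with no filter (adjusted p = 0.0583) and in 7 of 11 fits without 1 library, with an adjusted p of up to 0.102 without K18L06. WT livers had a lowest value of 816, a median of 1756 and a highest of 2171 CPM at 5 and 429.7, 641, 694, 799.6 and 1197 CPM at 20 months (log2 change -1.10, SE 0.37, adjusted p = 0.0729).

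Igfbp1 had the largest fold changes with age in liver of the 10 genes, and they did not pass the test. WT livers had a lowest value of 27.4, a median of 484 and a highest of 1664 CPM at 5 months and 23.3, 62.1, 113, 129.96 and 137 CPM at 20 months, and KO livers a lowest value of 40.3, a median of 516 and a highest of 1603 CPM and 73.4, 111, 129.8, 149 and 156 CPM. No 20-month library exceeded 156 CPM, while 5 of 6 WT and 5 of 6 KO livers at 5 months did. The log2 changes were -2.17 (SE 0.88, adjusted p = 0.122) in WT and -1.98 (SE 0.88, adjusted p = 0.22) in KO. On recovered reads the WT change was called by edgeR (-2.79, adjusted p = 0.0371) and by DESeq2 (-2.81, adjusted p = 0.00487), and the KO change by DESeq2 (-2.59, adjusted p = 0.0173). Without the libraries with Xist the WT value was -1.19 (adjusted p = 0.521).

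Igf1 and Ghr in liver were not called. WT Igf1 had 598 ± 107 CPM (SD, n = 6) at 5 and 465 ± 79.2 CPM (SD, n = 5) at 20 months (log2 change -0.36, SE 0.18, adjusted p = 0.209), and it was called only in the fit with sex, read from Xist, as a covariate (-0.52, adjusted p = 0.0476). Rescaled libraries, which moved the median of all genes in this comparison from -0.01 to 0.17, gave -0.15. The same rescaling moved that median from -0.02 to 0.15 in KO liver and from -0.02 to 0.10 in KO muscle. Ghr in WT livers averaged 341 CPM at 5 and 519.5 CPM at 20 months (log2 change 0.72, SE 0.32, adjusted p = 0.155). Summed macrophage markers in liver were 139 to 211 CPM at 20 and 165 to 406 CPM at 5 months in WT, which overlap, and 173 to 239 CPM against 259 to 505 CPM in KO, which do not. Their part in the liver results was not tested.

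Ranks within the groups of liver libraries were looked up for 1 library per group only, and those of the other libraries were not compared. In each of the 4 liver groups the library lowest in Igfbp1 was looked up: K5L5218 had 40.3 CPM of Igfbp1, W5L5005 27.4, W18L04 23.3 and K18L06 73.4 CPM. In 3 of the 4 groups that library was also the lowest in Irs2, with 9.71 CPM in K5L5218, 11.2 in W5L5005 and 14.9 CPM in W18L04. In the same 3 groups it was the highest in Igfals, with 197, 178 and 156 CPM, while K18L06, with 117 CPM, ranked 4 of 5 from the highest. It was the highest in Ghr in 3 groups, with 671 CPM in K5L5218, 748 in W18L04 and 465 CPM in K18L06. K5L5218 and W18L04, with W5L5277, are the 3 livers in which Dbp lay above Arntl (Arntl 4.06 to 12.8 CPM and Dbp 81.8 to 255 CPM, against 25.4 to 39.9 CPM and 1.75 to 19.6 CPM in the other 19). Time of day and feeding at collection are not given in the labels, and their part was not tested. Without the 3 libraries, 3 members were called for ageing in KO liver instead of 1: Igfbp1 (-2.69, adjusted p = 0.0368), Igfbp2 (-1.55, adjusted p = 0.0332) and Irs2 (-1.21, adjusted p = 0.0433). In WT liver Ghr was then called beside Irs1 (0.79, adjusted p = 0.0494).

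**Figure D3:**
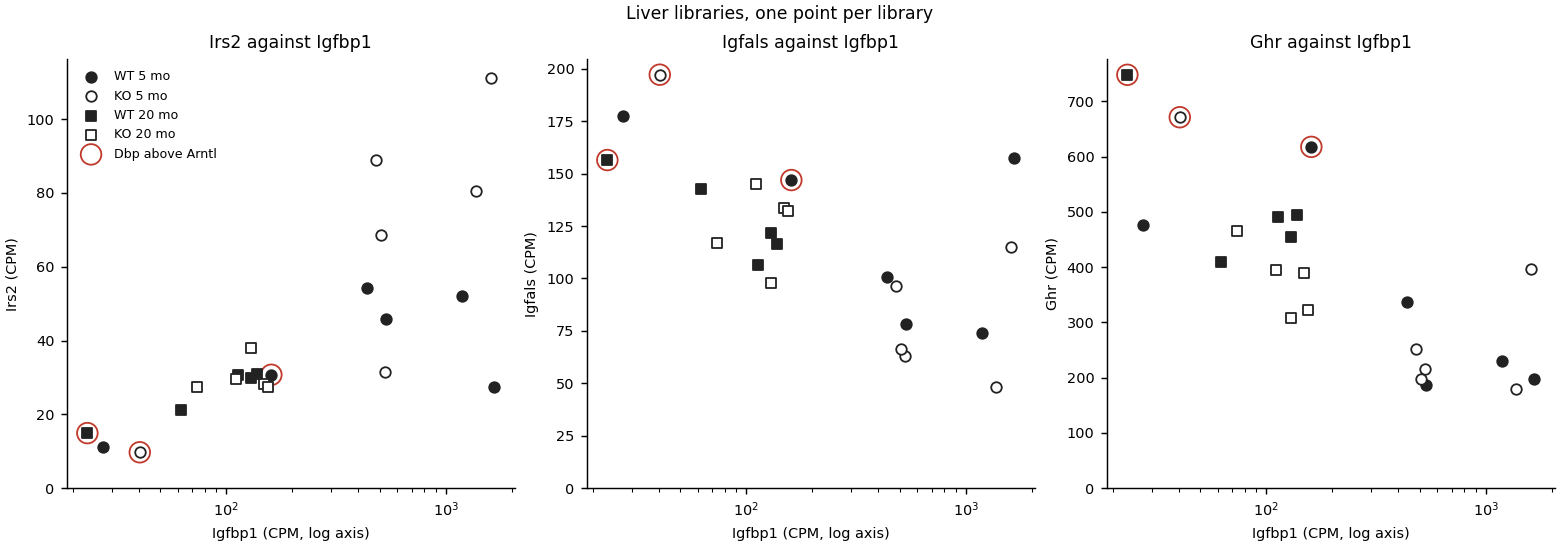
Irs2, Igfals and Ghr (y axes, CPM) against Igfbp1 (x axis, CPM, log axis) in the 22 liver libraries, by genotype (filled, WT; open, KO) and age (circles, 5 months; squares, 20 months), with a red ring for Dbp above Arntl. The libraries furthest left, W18L04, W5L5005 and K5L5218, have 9.71 to 14.9 CPM of Irs2 and 477 to 748 CPM of Ghr. The 20-month libraries lie between 23.3 and 156 CPM of Igfbp1.

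In skeletal muscle the change with age was seen in 4 of 8 members in WT mice. Ghr rose: the 5-month libraries had a lowest value of 105, a median of 114 and a highest of 167 CPM, and the 20-month libraries 143, 175, 177, 195 and 254 CPM. Of the 5 older libraries 4 lay above every younger one (log2 change 0.63, SE 0.14, adjusted p = 0.00692), and the call held in each of the 20 alternatives run. In KO muscle every 20-month value (128, 148, 151, 164 and 192 CPM) lay above every 5-month value (110.2, 114, 117 and 124 CPM), with a log2 change of 0.41 (SE 0.15, adjusted p = 0.101) that did not pass the test. Igf1r fell in WT, from 42.5, 52.9 and 79.3 CPM (lowest, median, highest) to 22.8, 30.0001, 35.6, 36.7 and 37.05 CPM, with no overlap (log2 change -0.73, SE 0.20, adjusted p = 0.0197).

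Irs2 and Igfbp3 also fell in WT muscle. Irs2 had a lowest value of 24.4, a median of 70.3 and a highest of 114 CPM at 5 months and 21.6, 24.4, 29.5, 33.6 and 47.2 CPM at 20 months. The lowest 5-month value came from W5S5277, a library with Dbp above Arntl, and it lay among the older ones (log2 change -1.16, SE 0.34, adjusted p = 0.0248). Igfbp3 had a lowest value of 21.5, a median of 47.7 and a highest of 60.4 CPM at 5 and 11.2, 17.9, 21.8, 24.9 and 25.8 CPM at 20 months, again with W5S5277 among the older values (log2 change -1.05, SE 0.32, adjusted p = 0.0295). Without the libraries with Xist the adjusted p was 0.1 for Igf1r (-0.56), 0.108 for Irs2 (-0.97) and 0.125 for Igfbp3 (-0.95). Without W18S42, the library with hepatocyte transcripts, it was 0.0666 for Igf1r (-0.61), 0.0723 for Irs2 (-1.05) and 0.07 for Igfbp3 (-1.02). Over the fits that left out 1 library the log2 change stayed between -0.79 and -0.61 for Igf1r, -1.45 and -1.02 for Irs2 and -1.23 and -0.86 for Igfbp3, and 10, 7 and 6 of the 11 fits kept the call. Ghr without W18S42 was 0.51 (adjusted p = 0.0248). All 4 were called without W5S5299, with an adjusted p of 0.011 for Ghr, 0.0254 for Igf1r, 0.034 for Irs2 and 0.0258 for Igfbp3. Summed macrophage markers in WT muscle were 35.5 to 88.4 CPM at 5 months (median 57.8) and 14.6 to 79.8 CPM at 20 months (median 27.4), with 4 and 5 of 6 markers above 1 CPM on average, and in KO muscle 55.8 to 93.96 CPM (median 67.7) and 26.6 to 61.7 CPM (median 39.3). The ages overlapped in both genotypes, and the part of these markers was not tested.

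KO muscle gave changes of the same sign for these 3 genes, -0.42 (SE 0.22) for Igf1r, -0.50 (SE 0.38) for Irs2 and -0.83 (SE 0.35) for Igfbp3, none past the test. Insr and Irs1 were not called in WT muscle, with -0.09 (SE 0.16) and -0.12 (SE 0.27). Igf1 in muscle ranged from 2.05 to 17.8 CPM over the WT libraries of both ages, and its change was -0.15 (SE 0.43, adjusted p = 0.829). The highest 20-month value was W18S42's.

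Whether the change with age differed between tissues was tested in WT in a fit over the 3 tissues, a test added after the data were seen. Liver against adipose tissue called 1 of 8 members, against 4.01% of all genes: Irs1, whose changes in liver and adipose tissue differed by 1.87 (SE 0.35, adjusted p = 5.23e-04), in each of the 33 alternatives run as well. Adipose tissue against muscle called 3 of 8, against 16.4%: Irs2 by 2.43 (SE 0.69, adjusted p = 0.0122), Igfbp3 by 1.72 (SE 0.56, adjusted p = 0.0289) and Irs1 by -1.05 (SE 0.35, adjusted p = 0.0319). The calls of Irs1 and Igfbp3 for adipose tissue against muscle were lost in 9 and 7 of 22 fits that left out 1 library, with an adjusted p of up to 0.0763 without W18S66 and 0.069 without W18F21. Liver against muscle called 0 of 8, against 3.1% (1 at an unadjusted p under 0.05, and 0 with edgeR and DESeq2). Mean Irs1 at 20 and 5 months was 22.96 and 53.2 CPM in adipose tissue, and 40.6 and 25.01 CPM in liver, while mean Irs2 was 82.3 and 39.1 CPM in adipose tissue and 31.2 and 76.2 CPM in muscle. The Irs1 and Irs2 promoters printed above share CACGTG and CAAAACAA, while Igfbp2 also holds CACGTG and Igfbp1 CAAAACAA. The part of these motifs in the changes with age was not tested.

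**Figure D4:**
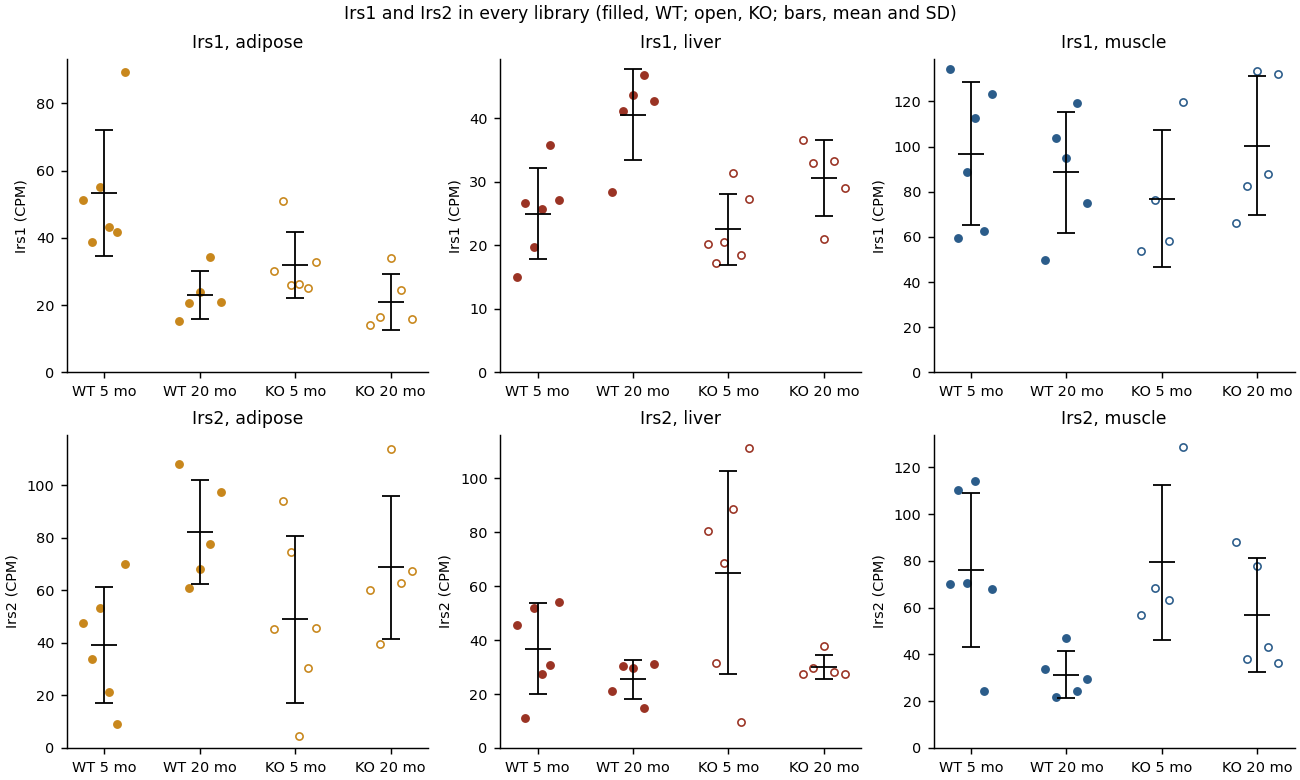
Irs1 (top) and Irs2 (bottom) in CPM in every library of each tissue, for WT (filled) and KO (open) at 5 and 20 months, with the mean and SD. In adipose tissue all 5 WT libraries at 20 months have less Irs1 than all 6 at 5 months.

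Other genes of the pathway were taken from lists fixed by name. limma called 0 genes of the 6 lists in 366 tests of KO against WT (23 at an unadjusted p under 0.05), and edgeR called 0 and DESeq2 2, Slc2a4 in 5-month adipose tissue and Ddit4 in 20-month muscle. For the interaction limma called 0 in 183 tests (7 at an unadjusted p under 0.05), as did edgeR and DESeq2. For KO against WT limma called 4 list genes without the libraries with Xist, all in 5-month adipose tissue: Igfbp4 (-1.22, adjusted p = 0.0208), Lepr (0.95, adjusted p = 0.0483), Slc2a4 (-2.23, adjusted p = 0.0154) and Tsc2 (-0.41, adjusted p = 0.0422). That fit called 531 of all genes. Of the libraries left in it, K5F4284, K5F5218 and K5F5248 of KO held 957 to 6239 CPM of epididymis markers, and W5F5299 of WT held 919 CPM. The part of these transcripts was not tested. Of the 32 calls with age that all libraries gave and that are named below, 14 held and 18 were lost without the libraries with Xist, 10 of the 18 in WT muscle. Jak2 (-0.36, adjusted p = 0.0366), Fasn (-0.85, adjusted p = 0.0145) and Srebf1 (-0.42, adjusted p = 0.0461) were called in WT muscle only without them. Of 10 genes of GH receptor to STAT5 signalling, 9 were tested in liver, and in WT ageing 2 were higher and 2 lower, where 7.19% of all genes were called (list median 0.02, beside -0.01 over all genes). The 2 lower genes were Cish and Socs2, feedback inhibitors that STAT5 induces. Cish had a lowest value of 8.58, a median of 31.8 and a highest of 52.7 CPM at 5 months and 2.66, 3.25, 3.57, 6.98 and 15.02 CPM at 20 months (log2 change -2.25, SE 0.48, adjusted p = 0.00683), and Socs2 had a lowest value of 14.7, a median of 66.2 and a highest of 120.2 CPM at 5 months and 3.33, 7.71, 11.4, 16.3 and 25.04 CPM at 20 months (log2 change -2.21, SE 0.50, adjusted p = 0.0108). Bcl6, a repressor that opposes STAT5 at many liver genes and that STAT5 represses, was higher, with a lowest value of 5.85, a median of 10.1 and a highest of 19.6 CPM at 5 months and 14.4, 36.95, 46.1, 67.4 and 76.7 CPM at 20 months (log2 change 1.91, SE 0.41, adjusted p = 0.00758). The other higher gene, Stat5a (0.67, adjusted p = 0.013, and 0.0537 without the libraries with Xist), is 1 of the STAT5 factors and is named here after its values were seen. The ages overlapped for Cish, Socs2 and Bcl6, and the 3 calls held in all 19 alternatives. KO liver gave 0 higher and 0 lower of 9 (3 at an unadjusted p under 0.05), with -0.23 (SE 0.48) for Cish, -1.20 (SE 0.50) for Socs2 and 0.81 (SE 0.41) for Bcl6.

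In WT muscle 3 of the 10 genes of that list were lower and 0 higher, where 18.6% of all genes were called (list median -0.06, beside 0.03): Cish (-2.63, SE 0.76, adjusted p = 0.0235), Socs3, another cytokine feedback inhibitor (-2.44, SE 0.67, adjusted p = 0.0189), and Socs2 (-1.42, SE 0.35, adjusted p = 0.0119). Every 20-month value of Cish (0.913 to 2.26 CPM) and Socs2 (8.55 to 11.6 CPM) lay below every 5-month value, for Socs2 by a narrow margin. Without the libraries with Xist the adjusted p was 0.0548, 0.1 and 0.0631 in that order. KO muscle called 0 of 10 (0 at an unadjusted p under 0.05). In WT adipose tissue, where 10.8% of all genes were called, Bcl6 alone of this list was (1.05, SE 0.32, adjusted p = 0.0393, and 0.0936 without the libraries with Xist). In KO adipose tissue 0 of 10 were called (4 at an unadjusted p under 0.05), against 14.2% of all genes. Without the libraries with Xist 2 were called in KO, Bcl6 (1.08, adjusted p = 0.0283) and Socs2 (-1.50, adjusted p = 0.0219). The share of all genes called in that fit is not given here.

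**Figure D5:**
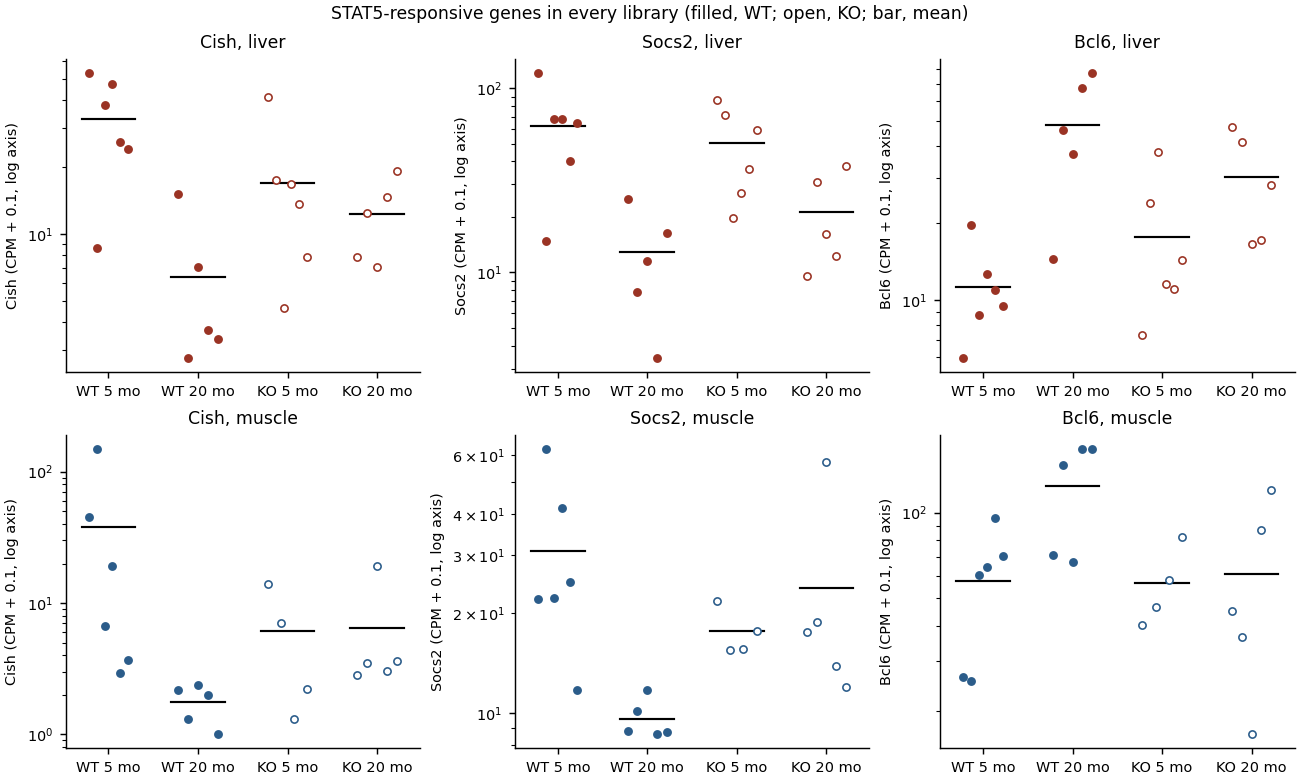
Cish, Socs2 and Bcl6 (CPM + 0.1, log axis) in every library of liver (top) and muscle (bottom), for WT (filled) and KO (open) at 5 and 20 months, with group means as bars. WT Cish and Socs2 are lower at 20 than at 5 months in both tissues, with log2 changes of -2.25 and -2.21 in liver.

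Calls with age among 12 other IGF ligands, receptors, binding proteins and their proteases are given beside the shares of all genes called. Those shares were 10.8% in WT and 14.2% in KO adipose tissue, 7.19% and 2.99% in liver, and 18.6% and 5.57% in muscle. Igfbp5, a matrix-bound binding protein, rose in WT liver from 10.8 ± 7.74 CPM (SD, n = 6) to 28.97 ± 12.4 CPM (SD, n = 5) (log2 change 1.45, SE 0.36, adjusted p = 0.0185), the only call of 7 tested there, and 1.14 (adjusted p = 0.126) without the libraries with Xist. Igf2r, which clears IGF2, rose in KO adipose tissue from 53.4 ± 19.2 CPM (SD, n = 6) to 125 ± 46.1 CPM (SD, n = 5) (1.22, SE 0.28, adjusted p = 0.00897), the only call of 12. There 5 of 12 were called without the libraries with Xist, Igf2r with Htra1 (1.17, adjusted p = 0.0098), Igfbp4 (1.11, adjusted p = 0.00516), Pappa (-0.80, adjusted p = 0.0356) and Stc2 (1.86, adjusted p = 0.00186), and 3 of the 4 KO libraries then left at 5 months hold epididymis transcripts. Over all 14286 genes tested, the count called for ageing in KO adipose tissue ran from 670 to 3297 over the alternatives. The count for the fit without the libraries with Xist is not given here, so the 5 of 12 are not read against it. Muscle had 2 of 11 lower in WT, Igfbp6 (-0.71, adjusted p = 0.0379) and Stc1 (-0.89, adjusted p = 0.0123, at 1.82 and 0.480 CPM), and 1 of 11 lower in KO, Igfbp6 (-1.12, adjusted p = 0.0179). In both genotypes Igfbp6, which prefers IGF2, lost its call in muscle without the libraries with Xist (adjusted p = 0.128 and 0.114). WT adipose tissue called 0 of 12 (2 at an unadjusted p under 0.05) and KO liver 0 of 7 (1).

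Of 26 genes that act after the receptors, 5 were lower and 0 higher in WT muscle, where 18.6% of all genes were called, so that the count is near the background (list median -0.17, beside 0.03 over all genes). The 3 with the largest change were Trib1, a pseudokinase (-1.83, SE 0.50, adjusted p = 0.0175), and the transcription factors Foxo1 (-1.70, SE 0.56, adjusted p = 0.0409) and Foxo3 (-1.03, SE 0.26, adjusted p = 0.0136), which AKT holds out of the nucleus. The other 2, named after their values were seen, were Slc2a4, the insulin-responsive glucose transporter (-0.41, adjusted p = 0.00945), and Tsc2 (-0.35, adjusted p = 0.0123). Foxo1 averaged 158 ± 82.1 CPM (SD, n = 6) at 5 and 43.7 ± 22.8 CPM (SD, n = 5) at 20 months. Without the libraries with Xist none of the 3 passed the test, with adjusted p-values of 0.104, 0.167 and 0.0662. KO muscle had 1 lower, Slc2a4 (-0.41, SE 0.11, adjusted p = 0.0306), and 1 higher, Rictor (0.63, SE 0.18, adjusted p = 0.0491, and 0.167 without the libraries with Xist). In adipose tissue Grb14, an adaptor that inhibits the insulin receptor, rose in KO from 5.40 ± 5.38 CPM (SD, n = 6) to 21.4 ± 10.5 CPM (SD, n = 5) (1.91, SE 0.49, adjusted p = 0.0156). Rptor also rose in KO (0.49, adjusted p = 0.0451, 0.0746 without the libraries with Xist and 0.129 with rescaled libraries). In WT Rictor rose (0.62, adjusted p = 0.0448), a call kept in 1 of 11 fits without 1 library (up to 0.0977 without W18F25). Without the libraries with Dbp above Arntl its adjusted p was 0.105. WT liver had 1 of 25 lower, Akt1 (-0.34, SE 0.09, adjusted p = 0.0208, and 0.0593 without the libraries with Xist), and KO liver 0 of 25 (4 at an unadjusted p under 0.05). With libraries rescaled to the same sum the adjusted p of Akt1 in WT liver was 0.431.

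Among 10 insulin and FoxO responsive metabolic genes, of which 9 were tested in adipose tissue and muscle, Ddit4, an mTORC1 inhibitor induced by stress, fell in WT muscle from 483 ± 391 CPM (SD, n = 6) to 18.3 ± 5.57 CPM (SD, n = 5) with no overlap between the ages (-3.90, SE 0.86, adjusted p = 0.00723, and 0.0504 without the libraries with Xist). It also fell in WT liver (-1.79, SE 0.50, adjusted p = 0.0328, and 0.147 without the libraries with Xist) and KO adipose tissue (-1.78, SE 0.57, adjusted p = 0.042). The KO adipose call was kept in 3 of 11 fits without 1 library, with an adjusted p of up to 0.107 without K18F30. The sestrins Sesn1 and Sesn3, inhibitors of the same complex, moved apart in WT muscle, at -2.11 (SE 0.58, adjusted p = 0.0191) and 0.85 (SE 0.21, adjusted p = 0.0107), and at 0.12 and 0.0762 in adjusted p without the libraries with Xist. Sesn3 also rose in KO muscle (1.06, adjusted p = 0.014) and in adipose tissue of WT (1.29, adjusted p = 0.00713) and KO mice (1.18, adjusted p = 0.0103). Pdk4 was called in WT adipose tissue only without the libraries with Xist (2.61, adjusted p = 0.0289). KO liver called 0 of 10 (3 at an unadjusted p under 0.05).

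Liver genes whose sex bias depends on the pattern of growth hormone pulses were looked at in liver only. For ageing in liver 7.19% of all genes were called in WT and 2.99% in KO, with medians over all genes of -0.01 and -0.02. Of 10 male-biased genes 0 were called for ageing in WT and 0 in KO (0 and 1 at an unadjusted p under 0.05), with list medians of -0.04 and -0.65. Of 9 female-biased genes tested, 0 were called in either genotype (2 and 0 at an unadjusted p under 0.05), with medians of -1.81 and -0.54. The 5-month groups hold libraries with Xist and the 20-month groups none, so sex and age mix here. Without those libraries the male-biased median was -1.37 in WT and -2.52 in KO, with 2 and 4 of 10 called, and the female-biased median was 0.25 and 0.56, with 1 and 2 called. The female-biased medians thus changed sign in both genotypes. Of all 12924 genes tested, 413 were called in WT liver without those libraries. In KO liver the count over all genes ran from 104 to 860 over the alternatives. The count for the KO fit without those libraries is not given here, so its calls are not read against it.

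For each member the 3 genes with the most similar profile were found by Pearson's r over the libraries of the tissue where the member is highest. Each pair of genes is read in the same libraries, with their groups, sexes and depths, so the values describe these libraries. Over 22 livers Igfbp1 was most like Gadd45g (r = 0.912), Fosl2 (0.900) and Rnd1 (0.886), Igfals most like Rbm4 (0.921), Acat3 (0.905) and Fahd1 (0.899), and Igfbp2 most like Rcl1 (0.889), Os9 (0.882) and Hpd (0.864). Igf1 was most like 3 serpins, Serpina1a (0.760), Serpina1e (0.757) and Serpina1c (0.734). Over 22 adipose libraries Ghr was most like Syde1 (0.923), Rsu1 (0.878) and Morc4 (0.864), and Igfbp3 most like Clip1 (0.840), Pdk4 (0.825) and Rusc2 (0.822). Over 20 muscle libraries Irs2 was most like Zbtb2 (0.927), Ccl9 (0.909) and Ccl6 (0.907), Igf1r most like Inf2 (0.873), Zfp592 (0.866) and Sympk (0.861), Insr most like Ap2b1 (0.856), Ern1 (0.847) and Mtor (0.847), and Irs1 most like Rabgef1 (0.785), Fam8a1 (0.763) and 4921524J17Rik (0.735).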

How the data were processed

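The deposited table gives 1 value per gene and library, which its header names CPM. The sums of the columns ran from 0.529 to 1.64 M, so the values are used as a read signal of the authors, scaled by a factor that is not given in the sources used here. All values were whole multiples (tolerance 0.05) of what 1 read is worth, which gave back reads for the count tests. The genome build was GRCm38.p6 (mm10), per the submitters' processing notes, and the aligner and counter are not given in the sources used here. The 996 gene IDs without a symbol held 0.155% of reads. Gene positions and promoters are RefSeq's on GRCm38.p6, with a promoter for 9 of 10 members.

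Groups came from the labels. A gene was kept if the number of libraries above 1 CPM reached the size of the smallest group. Kept genes went into limma 3.58.1 (R 4.3.3, trend, Benjamini-Hochberg adjustment, threshold 0.05) on log2(CPM + 1), with the 4 groups of a tissue in 1 fit. For contrasts between tissues all 12 groups, KO included, were in another fit, of the genes kept in each tissue. The tests were checked on simulated data. Alternatives were a pseudocount of 0.1, no filter, rescaled libraries, edgeR 4.0.16 and DESeq2 1.42.0 on recovered reads, a sex covariate, libraries left out, and a replicate block. The labels do not say whether replicates are separate animals beyond their being separate samples, so p-values measure the spread between these samples. Counting noise was small beside that spread: no pair of libraries in a group had a chi-square per degree of freedom under 13.5.

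Members and lists were chosen with earlier results of these data known. The rule for named genes was all 10 members, and at most 3 called genes with the largest change per list and comparison, from 6 lists: GH receptor to STAT5 signalling, other IGF genes, signalling after the receptor, insulin and FoxO responsive genes, and male-biased and female-biased liver genes. Most similar genes were the 3 with the highest Pearson's r of log2(CPM + 1) in the tissue of a member's highest mean. Fits without the libraries with Dbp above Arntl or with hepatocyte transcripts, and the tissue differences in ageing, were added after the data were seen.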

Additional observations from a re-analysis of the deposited data

Results flagged for a closer look

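In 11 of 109 groups of 4 to 6 libraries, taken gene by gene, 1 library lay far from the others, by its gap to the next value over the group's range. The rule is taken to flag about 1 in 20 by chance, a rate that was not checked on these data. Groups of different genes share libraries, so no excess over chance is read from the 11. For Ghr these were W18L04 in 20-month WT liver (748 CPM, next 495 CPM) and W5S5277 in 5-month WT muscle (167 CPM, next 120.4 CPM), both libraries with Dbp above Arntl. For Irs1 they were W5F5299 in 5-month WT adipose tissue (89.3 CPM, next 55.0 CPM), which has epididymis transcripts, and K5F4285 in 5-month KO adipose tissue (50.9 CPM, next 32.7 CPM). For Irs2 they were K5S5118 in 5-month KO muscle (129 CPM, next 68.6 CPM) and K18L08 in 20-month KO liver (38.0 CPM, next 29.6 CPM). W18S42, the muscle library with hepatocyte transcripts, stood apart for Igfbp2 (21.3 CPM, next 0.271 CPM) and Igfals (5.82 CPM, next 2.77 CPM). In adipose tissue Igf1 was apart in K18F26 (141 CPM, next 95.9 CPM), Insr in K18F28 (182 CPM, next 103 CPM) and Igfals in K5F5218 (7.33 CPM, next 2.84 CPM).

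The change with age in WT differed between tissues, by a test of the difference itself, in 4 cases. Irs1 differed by 1.87 for liver against adipose tissue and by -1.05 for adipose tissue against muscle on the log2 scale. For adipose tissue against muscle Igfbp3 differed by 1.72 and Irs2 by 2.43. The test was added after the data were seen. It called 4.01% of all genes for liver against adipose tissue and 16.4% for adipose tissue against muscle. In the latter the Irs1 and Igfbp3 calls held in 13 and 15 of 22 fits without 1 library, and each in 6 of 11 other alternatives.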

How the results depend on the processing

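Alternative values of single genes were counted for members between tissues, for other member comparisons called in any setting, and for the named list genes. Of these values, 1408 kept their direction and their side of the threshold, 219 lost and 36 gained a call, and 24 changed sign. The causes were not tested. For KO against WT in adipose tissue at 5 months, 1 member, Igf1r at 1.15, was called without the libraries with Xist (0 with them), and Igf1r turned to -0.024 without the libraries with Dbp above Arntl. Members called for WT ageing in adipose tissue (1) became 2 without the Xist libraries. In WT liver (1) they became 0 with no filter and without the Xist libraries, 2 with edgeR, the sex covariate or without the Dbp libraries, and 3 with DESeq2. In KO liver (1) they became 0 with no filter, 2 with DESeq2 and 3 without the Dbp libraries. In WT muscle (4) they became 2 with no filter or the sex covariate, and 1 without the Xist libraries or the hepatocyte library. In KO muscle (0) they became 1 with rescaling or DESeq2. Between liver and adipose tissue (5) rescaling gave 8, and between adipose tissue and muscle (6) it gave 3. For ageing in adipose tissue against muscle (3) no filter, no Dbp libraries and no hepatocyte library each gave 1.

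Leaving out 1 library at a time gave 1 to 2 members for WT and 0 to 2 for KO ageing in adipose tissue, 0 to 3 for WT and for KO in liver, 1 to 4 for WT in muscle, and 1 to 3 for ageing in adipose tissue against muscle. It moved Igfbp3 between -0.55 and 0.095 for liver against adipose tissue and between -0.52 and 0.12 for adipose tissue against muscle, and Irs2 between -0.34 and 0.30 for liver against adipose tissue. Igfbp3 for liver against adipose tissue was 0.54 without the Xist libraries. Irs2 there was -1.09 with rescaling, -0.14 with edgeR, -0.12 with DESeq2, -0.069 without the Xist and -0.32 without the Dbp libraries. For adipose tissue against muscle Igfbp3 was 0.67 with rescaling, 0.28 with edgeR, 0.29 with DESeq2 and 0.017 without the epididymis libraries. Rescaling turned Insr to -0.83 (liver against adipose tissue) and 0.33 (adipose tissue against muscle), and Irs1 to 0.019 in the latter.

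Over all genes the counts called also moved. KO against WT gave 15 in adipose tissue at 5 months (2 without W5F5006, 531 without the Xist libraries), 9 and 3 in liver at 5 and 20 months (1 to 47 and 1 to 18), and 4 in muscle at 20 months (1 to 42). Ageing gave 1539 (739 to 3528) in WT and 2033 (670 to 3297) in KO adipose tissue, 929 (413 to 1623) and 386 (104 to 860) in liver, and 2463 (937 to 3842) and 737 (131 to 1434) in muscle. Ageing between tissues gave 454 (281 to 1008) for liver against adipose tissue, 351 (173 to 736) for liver against muscle and 1861 (860 to 2993) for adipose tissue against muscle. With no filter 13121, 12782 and 12848 genes differed between tissues, against 8100, 8439 and 8404.

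The replicate block, with the number in a library's code as the pair across tissues, had a correlation of 0.06 and left the counts at 5, 6 and 6 members between tissues and 1, 0 and 3 for their ageing. The labels do not say that a shared number is a shared animal.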
